A study of Mus musculus with 47 samples.

Results

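Gas1, Spry1, Fgfr1, Fgfr4 and Chrdl2 are genes that quiescent muscle stem cells are known to express, and they were followed here over the day in stem cells of mice on a high-fat or a control diet. The genes were chosen by name, with earlier results of these data known. Counts of members set against the share of all tested genes are therefore no independent evidence. For each gene, the probe sets of the expression array annotated to its symbol were taken and the one brightest on average was used. That gave 5 genes of the 17097 with a symbol on the array and of the 10258 bright enough to be tested, and all 5 members passed that filter.

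RNA came from muscle stem cells (satellite cells) of 47 wild-type female C57B6/J mice, with 1 array per mouse. The mice received a high-fat diet (23 mice) or its matched control diet (24 mice) from 8 weeks of age for 7 weeks, feeding freely, and were 15 weeks old at collection. They were collected at 6 zeitgeber times, ZT0, ZT4, ZT8, ZT12, ZT16 and ZT20, where ZT0 is by convention lights on. Each diet and time had 4 mice, except the high-fat diet at ZT16 with 3. All mice of a time, on both diets, were collected on 1 day, so a difference between diets at a given time lies within a day, whereas time of day and collection day cannot be told apart within a diet. Values are deposited log2 expression values, which have no read depth. A difference of 1 on this scale is a factor of 2, and each value after ± is a standard error (SE) from limma unless SD is named. The label was checked against satellite cell markers. All 8 markers lay above the filter, and the list mean was between 9.79 and 10.36 in high-fat mice and between 9.85 and 10.09 in control mice. Some markers of other cells were as bright as Pax7 (10.98 in high-fat and 10.86 in control mice). Among them were the fibroblast gene Col3a1 (11.37 in high-fat, 11.26 in control) and the smooth muscle gene Acta2 (10.91 in high-fat, 10.96 in control). Others were dim, such as the leukocyte gene Ptprc (3.85 in both). The check thus does not show how pure the cells were. How the cells were isolated is not given in the sources used here. Control ZT20 replicate 2 stood apart from its group. It had the lowest mean correlation to its own group of all arrays (0.969) and an endothelial list mean of 7.67, where the high-fat mice of that time lay between 5.53 and 5.78 and the other 3 control mice between 5.63 and 5.78. Tests of the 5 members that it bears on are given with and without it. Values of other genes, other probe sets, marker lists and group means include it.

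Satellite cells lie dormant beneath the sheath of the muscle fibre and enter the cell cycle when muscle is injured or loaded. Fibroblast growth factors (FGFs) bind receptor tyrosine kinases such as Fgfr1 and Fgfr4, which drive the Ras to ERK cascade, and Sprouty proteins are feedback inhibitors of that cascade. In the mouse, Spry1 is needed for dividing satellite cells to return to quiescence during repair. Gas1 encodes a membrane-anchored protein found in growth-arrested fibroblasts, where it blocks entry into DNA synthesis, and it is also a Hedgehog co-receptor. Chrdl2 encodes a secreted chordin-like protein that binds bone morphogenetic proteins (BMPs).

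The 250 bases before the RefSeq start (build GRCm38.p6) are shown for Gas1, Spry1 and Fgfr4, the 3 of 5 members matched in the promoter table used, so that their GC boxes can be seen. Fgfr1 and Chrdl2 were not matched. Capitals mark the GC box GGGCGG, the sequence bound by Sp1-type factors, on either strand. Gas1 lies at chr13:60174405-60177535 on the minus strand and its stretch is chr13:60177536-60177785. Spry1 lies at chr3:37639947-37644599 on the plus strand and its stretch is chr3:37639697-37639946. Fgfr4 lies at chr13:55152818-55168759 on the plus strand and its stretch is chr13:55152568-55152817.
Gas1: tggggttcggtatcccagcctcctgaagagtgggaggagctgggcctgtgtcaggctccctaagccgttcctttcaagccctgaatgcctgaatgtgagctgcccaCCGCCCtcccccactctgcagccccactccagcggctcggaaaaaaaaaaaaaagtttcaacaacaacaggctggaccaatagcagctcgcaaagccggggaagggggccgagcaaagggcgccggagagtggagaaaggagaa
Spry1: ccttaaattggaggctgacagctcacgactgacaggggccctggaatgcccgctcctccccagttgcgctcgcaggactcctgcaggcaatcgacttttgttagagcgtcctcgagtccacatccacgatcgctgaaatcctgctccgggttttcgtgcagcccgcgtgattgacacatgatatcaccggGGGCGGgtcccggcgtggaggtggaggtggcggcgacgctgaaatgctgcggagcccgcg
Fgfr4: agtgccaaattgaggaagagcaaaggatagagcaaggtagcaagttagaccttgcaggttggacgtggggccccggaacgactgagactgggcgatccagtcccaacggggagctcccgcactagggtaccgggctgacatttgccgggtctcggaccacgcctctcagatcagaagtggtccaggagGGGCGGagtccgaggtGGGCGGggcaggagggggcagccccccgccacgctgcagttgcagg
The Gas1 stretch held 1 GC box, on the strand opposite to the one printed, 144 bases upstream of the start. The Spry1 stretch held 1 at 60 bases, and the Fgfr4 stretch held 2, at 62 and 46 bases. A GC box occurred in 32.7% of the 32851 mouse promoter stretches of this length. The stretches were also searched on both strands for the E-box CACGTG (6.02% of promoters), the glucocorticoid receptor half-site AGAACA (16.1%), the AP-1 motif TGANTCA (6.75%), the FOXO motif GTAAACA (3.17%), the RBPJ motif GTGGGAA (5.42%) and the TATA box TATAAA (12.4%). None of these letters was found in the 3 windows, and no motif match overlapped another. Their GC contents were 58.8%, 62.4% and 64.0% for Gas1, Spry1 and Fgfr4.

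Averaged over the 6 times, Gas1 and Spry1 were higher on the high-fat diet, while no average difference was detected for Fgfr1, Fgfr4 or Chrdl2. Gas1 was higher by 0.26 ± 0.06 (1.20-fold, adjusted p = 0.00207) and Spry1 by 0.19 ± 0.04 (1.14-fold, adjusted p = 0.00319), both by limma with adjustment over the 10258 genes tested. These are 2 of 5 members, against 11.5% of all tested genes that differed of which 4.7% of all were higher and 6.8% lower. With the probe sets used, the other members had narrow intervals around 0. Another Fgfr1 probe set, described further below, was higher on the high-fat diet on average. The 95% interval ran from -0.04 to 0.01 for Fgfr1 (-0.02 ± 0.01, adjusted p = 0.493), from -0.01 to 0.06 for Fgfr4 (0.02 ± 0.02, adjusted p = 0.45) and from -0.08 to 0.09 for Chrdl2 (0.00 ± 0.04, adjusted p = 0.96). The averages of Gas1 and Spry1 depended on the ZT16 mice. Without the mice of that time on either diet, Gas1 was at 0.10 (adjusted p = 0.4) and Spry1 at 0.14 (adjusted p = 0.0786), and 0 of 5 members passed. The number of genes that passed over the whole table was then 584, against 1180 with all mice. Without control ZT20 replicate 2 the averages were 0.25 for Gas1 (adjusted p = 0.00309) and 0.20 for Spry1 (adjusted p = 0.002).

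Some markers of other cells differed on average as well, where 11.5% of all tested genes did. Of the tested fibro-adipogenic and fibroblast markers 2 of 5 were higher on the high-fat diet, of the Schwann cell markers 3 of 6, of the myofibre markers 2 of 8 and of the adipocyte markers 1 of 2. Of the pericyte markers 1 of 6 was lower and of the immune markers 1 of 2, while 0 of 3 endothelial and 0 of 2 erythroid markers passed by limma. Every list overlapped between diets over all mice. The mean of the fibro-adipogenic list, for example, ran from 7.42 to 8.27 in high-fat mice and from 7.32 to 8.39 in control mice, and that of the Schwann cell list from 7.56 to 8.54 in high-fat mice and from 7.48 to 8.23 in control mice. The satellite cell list itself averaged 10.07 in high-fat and 9.97 in control mice. Among the mice of ZT12, the satellite cell, fibro-adipogenic and Schwann cell lists did not overlap between diets, as held for 7.47% of all tested single genes. The part of these lists in the averages was not tested.

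The average diet differences were also compared between members by permuting diet within times (10 pairs, 100000 permutations, two-sided, adjusted over the pairs). The difference of Gas1 exceeded that of Fgfr1 by 0.27 (adjusted permutation p = 0.0029) and that of Fgfr4 by 0.23 (0.0186). The difference of Spry1 exceeded that of Fgfr1 by 0.21 (0.0007) and that of Fgfr4 by 0.17 (0.0086). Gas1 and Spry1 against Chrdl2 did not pass (0.0698 each), and neither did the other 4 pairs. Leaving out control ZT20 replicate 2 gave 5 pairs, with Spry1 against Chrdl2 in addition (0.0455). Without the ZT16 mice, 1 of the 10 pairs passed, Spry1 against Fgfr1. The genes were chosen with earlier results of these data known, so these tests are no independent evidence.

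**Figure D1:**
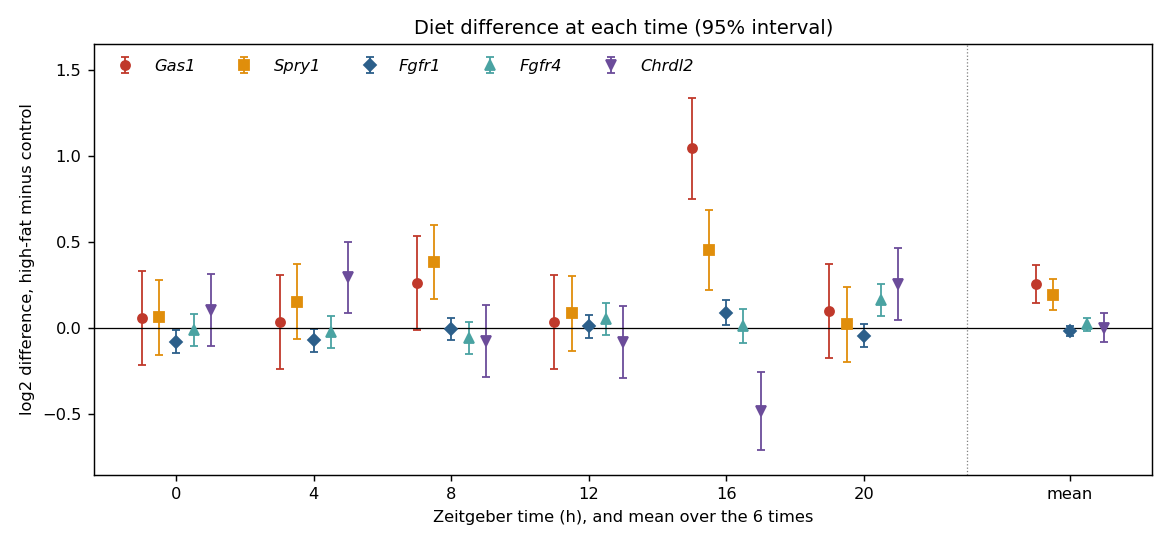
The log2 difference, high-fat minus control, is shown for each of the 5 genes at each zeitgeber time (h) and as the mean over the 6 times, with 95% intervals from limma. Gas1 stands at 1.04 at ZT16, Spry1 at 0.45 and Chrdl2 at -0.48, while the Fgfr1 and Fgfr4 points stay within 0.17 of 0.

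The diets differed most often at ZT16, where 3 of 5 members passed, against 13.3% of all tested genes (6.13% higher and 7.13% lower). Gas1 and Spry1 were higher on the high-fat diet and Chrdl2 was lower. Gas1 read 10.83, 10.95 and 10.98 in the 3 high-fat mice, against 9.89, 9.89, 9.78 and 9.95 in the 4 control mice. The high-fat mice lay close together and all far above the control mice. The difference of 1.04 ± 0.15 is 2.06-fold (adjusted p = 5.14e-06, limma). Spry1 read 10.96, 11.04 and 11.21 in high-fat mice, against 10.43, 10.79, 10.61 and 10.64 in control mice. All high-fat mice were above all control mice, with a difference of 0.45 ± 0.12 (1.37-fold, adjusted p = 0.00697). Without high-fat ZT16 replicate 3, the highest of the 3, the Spry1 difference was 0.38 and did not pass (adjusted p = 0.0684). Chrdl2 read 9.72, 10.11 and 9.68 in high-fat mice, against 10.39, 10.47, 10.16 and 10.25 in control mice. Here all high-fat mice were below all control mice, although replicate 2 came close to the lowest control mouse. The difference was -0.48 ± 0.11 (adjusted p = 0.00306).

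For Fgfr1, but not for Fgfr4, the ZT16 result depended on the probe set. Fgfr1 read 12.21, 12.21 and 12.23 in high-fat mice, against 12.14, 12.14, 12.15 and 12.08 in control mice. Every high-fat mouse was higher, by a small margin, and the difference of 0.09 ± 0.04 did not pass (adjusted p = 0.0837). It passed with the mean of all 3 Fgfr1 probe sets (0.21, adjusted p = 0.00346) and under 3 further settings. Fgfr4 read 11.30, 11.34 and 11.42 in high-fat mice, against 11.26, 11.44, 11.38 and 11.29 in control mice, so the diets overlapped (0.01 ± 0.05, adjusted p = 0.906). In all, the diets did not overlap at ZT16 for 4 of 5 members, against 29.1% of all tested genes. In a preparation of many cells, fewer cells of a type and less RNA per cell cannot be told apart.

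Some marker lists of other cells also separated the diets at ZT16, where 29.1% of all tested single genes did. The mean over the 9 measured fibro-adipogenic and fibroblast markers ran from 7.60 to 7.80 in high-fat mice and from 7.39 to 7.55 in control mice. The mean over 8 endothelial markers ran from 5.68 to 5.91 in high-fat mice and from 5.53 to 5.56 in control mice, and that over 10 myofibre markers from 6.26 to 6.44 in high-fat mice and from 6.09 to 6.23 in control mice. These 3 lists did not overlap between diets, whereas the satellite cell, pericyte, Schwann cell, immune, adipocyte and erythroid lists did. Of the tested genes of the 3 lists, 0 of 5, 0 of 3 and 2 of 8 passed at ZT16, against 13.3% of all tested genes. Of the other lists, the Schwann cell gene Mag (0.41 ± 0.11, adjusted p = 0.0124) and the adipocyte gene Lipe (0.66 ± 0.11, adjusted p = 0.000137) passed at ZT16, which are 1 of 6 and 1 of 2. The lists held both bright and dim markers, beside a median non-specific probe set of 3.89. The levels given next are averages over all mice of a diet at all 6 times, not at ZT16 alone. Of the bright ones, the fibroblast gene Dpt averaged 11.45 in high-fat and 11.32 in control mice, the macrophage gene Cd68 8.47 in high-fat and 8.79 in control mice, and the endothelial gene Cdh5 6.88 in high-fat and 6.96 in control mice. At ZT16 alone Cdh5 was at 0.57 ± 0.38, the opposite direction, and did not pass (adjusted p = 0.338, limma). Of the dim ones, Pdgfra averaged 4.36 in high-fat and 4.37 in control mice, the leukocyte gene Ptprc 3.85 in both and the adipocyte gene Adipoq 4.40 in high-fat and 4.58 in control mice. The part of these cells in the ZT16 differences was not tested.

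**Figure D2:**
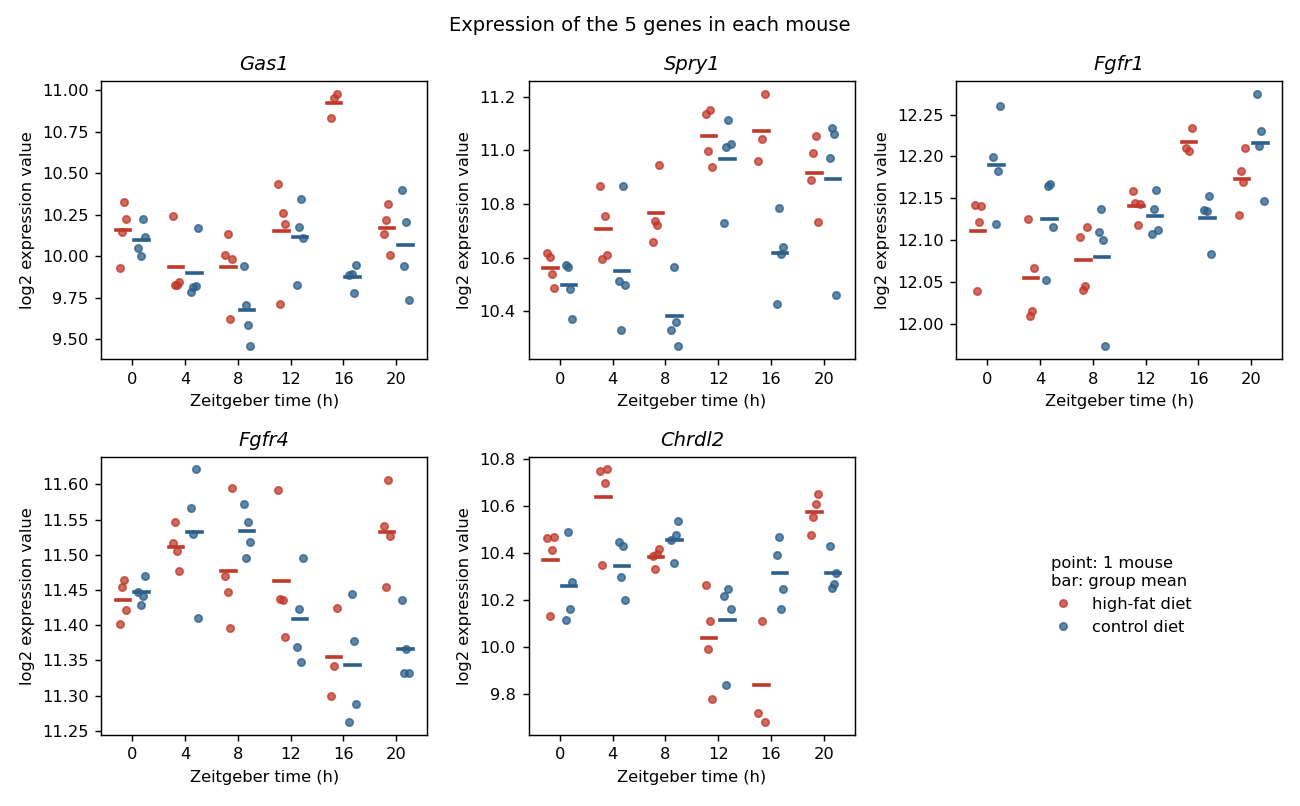
Each point is the log2 expression value of 1 mouse, and each bar the mean of a group, for the 5 genes over zeitgeber time (h), with high-fat mice left of control mice. The vertical axes differ between genes and do not start at 0. The 3 high-fat ZT16 mice lie above 10.8 for Gas1, apart from the other mice.

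At the other times no member passed. The counts were 0 of 5 at ZT0, ZT4, ZT8, ZT12 and ZT20, against 3.56%, 0.312%, 1.78%, 0.858% and 0.819% of all tested genes. In the same order, 1, 2, 1, 0 and 2 members had an unadjusted p under 0.05. Ranked by p among the 10258 genes tested, these stood between 118 (Fgfr4 at ZT20) and 1225 (Fgfr1 at ZT0). The mice of the diets overlapped for every member at ZT0, ZT4 and ZT12, where 9.99%, 5.38% and 7.47% of all tested genes did not overlap. Spry1 came closest at ZT8. It read 10.66, 10.74, 10.72 and 10.94 in high-fat mice, against 10.33, 10.56, 10.36 and 10.27 in control mice. The diets did not overlap, as held for 9.83% of all tested genes, and the difference was 0.38 ± 0.11 (adjusted p = 0.0505). It passed under 5 other settings. Leaving out any 1 of 10 mice also let it pass (lowest adjusted p = 0.0221, without control ZT20 replicate 4, and 0.0463 without control ZT20 replicate 2). Gas1 at ZT8 was at 0.26 ± 0.13 (adjusted p = 0.308), with overlapping mice.

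At ZT20 Fgfr4 read 11.54, 11.45, 11.61 and 11.53 in high-fat mice, against 11.44, 11.33, 11.37 and 11.33 in control mice. All high-fat mice were higher, by 0.17 ± 0.05 on average (adjusted p = 0.0665). Chrdl2 at ZT20 read 10.48, 10.56, 10.61 and 10.65 in high-fat mice, against 10.43, 10.25, 10.27 and 10.32 in control mice. Its high-fat mice were again all higher, by 0.26 ± 0.10 (adjusted p = 0.229), the opposite direction to ZT16. Such separation at ZT20 held for 6.33% of all tested genes. Without control ZT20 replicate 2 the ZT20 differences were 0.15 for Fgfr4 (adjusted p = 0.139) and 0.24 for Chrdl2 (adjusted p = 0.369), and 41 genes of all tested passed at ZT20, against 84 with all mice. The pericyte and smooth muscle list also separated the diets at ZT20, with list means from 7.74 to 8.83 in high-fat mice and from 8.996 to 9.23 in control mice. With control ZT20 replicate 2 included, the list's genes Kcnj8 (-1.45 ± 0.32, adjusted p = 0.0136) and Pdgfrb (-0.86 ± 0.20, adjusted p = 0.0294) passed there. The part of that list in the Fgfr4 and Chrdl2 differences was not tested. At ZT4 Chrdl2 was at 0.30 ± 0.10 (adjusted p = 0.192), with 3 of 4 high-fat mice above all control mice.

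The diet difference itself varied with time for Gas1 (interaction adjusted p = 0.00331) and Chrdl2 (adjusted p = 0.00465), which are 2 of 5 members, against 12.4% of all tested genes. Gas1 was higher on the high-fat diet by 1.04 at ZT16 and by 0.04 to 0.26 at the other times. The Chrdl2 difference was 0.30 at ZT4, -0.48 at ZT16 and 0.26 at ZT20, and the 6 times averaged to the 0.00 above. Fgfr1 (adjusted p = 0.0742), Fgfr4 (0.103) and Spry1 (0.133) did not pass, although all 5 members had an unadjusted p under 0.05. The largest of these, that of Spry1, ranked 2759 of the 10258 genes tested, so such a p was common. Without the ZT16 mice no member passed (Gas1 adjusted p = 0.868, Chrdl2 adjusted p = 0.165). The same 2 members passed without control ZT20 replicate 2 (Gas1 adjusted p = 0.00374, Chrdl2 adjusted p = 0.00714). Without control ZT20 replicate 4, 4 members passed, Spry1 (adjusted p = 0.021) and Fgfr1 (0.049) in addition.

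Within each diet most members changed over the day. On the high-fat diet 5 of 5 members changed between times, against 40.1% of all tested genes, and on the control diet 4 of 5, all but Chrdl2 (adjusted p = 0.117), against 36.3%. On the high-fat diet the Gas1 means, in the order of ZT0 to ZT20, were 10.16, 9.93, 9.94, 10.15, 10.92 and 10.17. The ZT16 mean lay 0.75 above the next highest, and no mouse overlapped between these times. On the control diet the Gas1 means were 10.10, 9.90, 9.67, 10.11, 9.88 and 10.07, and no neighbours in the order of levels differed by more than their SD. The control change of Gas1 was marginal (adjusted p = 0.0439) and was lost without any 1 of 18 mice (highest adjusted p = 0.141, limma). It was also lost under 4 other settings (highest adjusted p = 0.062, without the ZT16 mice). Without control ZT20 replicate 2 the control change was still found for 4 of 5 members (Gas1 adjusted p = 0.0419). The Spry1 means on the high-fat diet were 10.56, 10.71, 10.77, 11.06, 11.07 and 10.92, and on the control diet 10.50, 10.55, 10.38, 10.97, 10.62 and 10.89. Both diets thus had high levels at ZT12, and the high-fat level stayed high at ZT16.

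The probe sets used for the receptor genes moved over a narrow range. With the mean over its 3 probe sets, the range of the Fgfr1 means was 0.38 in high-fat mice and 0.23 in control mice, where the one used gave 0.16 in high-fat and 0.14 in control mice. Fgfr1 did not pass for a control change without the intensity trend (adjusted p = 0.113). The Fgfr1 means, again from ZT0 to ZT20, were 12.11, 12.05, 12.08, 12.14, 12.22 and 12.17 on the high-fat diet and 12.19, 12.13, 12.08, 12.13, 12.13 and 12.22 on the control diet. Its highest mean came at ZT16 on the high-fat and at ZT20 on the control diet. The Fgfr4 means were 11.44, 11.51, 11.48, 11.46, 11.36 and 11.53 on the high-fat diet and 11.45, 11.53, 11.53, 11.41, 11.34 and 11.37 on the control diet. The lowest mean was at ZT16 on both diets. The high-fat change of Fgfr4 was marginal (adjusted p = 0.0407) and was lost without any 1 of 9 mice and under 5 other settings (highest adjusted p = 0.339, without the ZT16 mice). The Chrdl2 means were 10.37, 10.64, 10.38, 10.04, 9.84 and 10.57 on the high-fat diet and 10.26, 10.34, 10.46, 10.12, 10.32 and 10.32 on the control diet. Its high-fat course fell by 0.80 between its highest and lowest means, against 0.34 on the control diet, where no neighbours in the order differed by more than their SD.

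**Figure D3:**
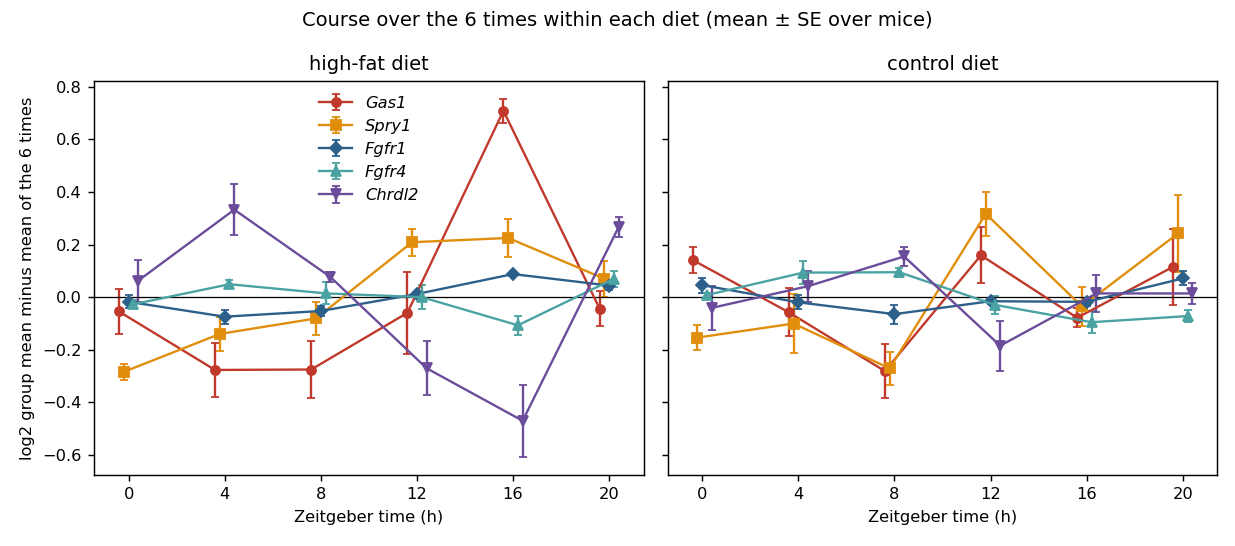
Group means of each gene are drawn as log2 deviations from the mean of the 6 times of that diet, with SE over mice, on the high-fat diet (left) and the control diet (right) against zeitgeber time (h). On the high-fat diet Gas1 is highest and Chrdl2 lowest at ZT16.

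Fitted 24 h cosines gave rhythms for 4 of 5 members on the high-fat diet, against 16.9% of all tested genes, and for 2 of 5 on the control diet, against 10.5%. On the high-fat diet the amplitude, measured from the cosine's midline up to its peak, was 0.34 ± 0.07 for Gas1 with a peak at 16.8 h (adjusted p = 0.00329). It was 0.25 ± 0.06 for Spry1 with a peak at 14.4 h (adjusted p = 0.00596), 0.08 ± 0.01 for Fgfr1 at 17.0 h (adjusted p = 0.000553) and 0.31 ± 0.06 for Chrdl2 at 2.08 h (adjusted p = 0.000534). Gas1, Spry1 and Fgfr1 thus peaked in the dark phase and Chrdl2 early in the light phase, taking lights off at ZT12 as is usual. Without the ZT16 mice the Gas1 amplitude was 0.15 (adjusted p = 0.325). On the control diet Fgfr1 had 0.06 ± 0.01 with a peak at 21.1 h (adjusted p = 0.00921) and Fgfr4 0.10 ± 0.02 with a peak at 5.40 h (adjusted p = 0.00171), while Spry1 was at 0.19 ± 0.06 (adjusted p = 0.0559). The Spry1 rhythm on the control diet passed under 5 other settings (lowest adjusted p = 0.0019, without the ZT16 mice, with an amplitude of 0.33) and without any 1 of 5 mice (lowest adjusted p = 0.0158). Without control ZT20 replicate 2 the control rhythms had adjusted p = 0.0183 for Fgfr1, 0.00376 for Fgfr4 and 0.0842 for Spry1. With the collection day as a random block, Spry1 on the high-fat diet (adjusted p = 0.0538) and Fgfr1 on the control diet (adjusted p = 0.13) no longer passed. Fgfr1 on the control diet also no longer passed without the intensity trend (adjusted p = 0.0826).

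Whether the rhythms differed between diets was tested within days, and 0 of 5 members passed by limma, against 2.11% of all tested genes. Chrdl2 (adjusted p = 0.0614), Fgfr1 (0.0849), Gas1 (0.199) and Fgfr4 (0.218) had an unadjusted p under 0.05 and Spry1 did not (adjusted p = 0.527). Ranked by p among the 10258 genes tested, these stood at 264 (Chrdl2), 406 (Fgfr1), 1225 (Gas1) and 1408 (Fgfr4). The count was also 0 without control ZT20 replicate 2 (Chrdl2 adjusted p = 0.059). Chrdl2 passed without any 1 of 5 mice (lowest adjusted p = 0.0296, without control ZT12 replicate 2). A rhythm that passed on one diet only is therefore not shown to differ between the diets.

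Fgfr1 and Fgfr4 were measured by several probe sets, whereas Gas1, Spry1 and Chrdl2 had 1 each. Of the Fgfr1 probe sets, 1436551_PM_at differed from the one used. It was higher on the high-fat diet by 0.11 ± 0.03 on average (adjusted p = 0.0263) and by 0.43 ± 0.08 at ZT16 (adjusted p = 0.000531). The probe set used was 1425911_PM_a_at. The third, 1424050_PM_s_at, was at -0.02 ± 0.04 on average (adjusted p = 0.795) and at 0.10 ± 0.10 at ZT16 (adjusted p = 0.552). All 3 had a rhythm on both diets, which peaked between 15.2 and 18.3 h in high-fat mice and between 19.5 and 21.9 h in control mice. For Fgfr4, the 4 other probe sets were at 0.15 to 0.24 at ZT20, the same direction as the one used, and none of the 5 passed for a diet difference at any time or on average. The control rhythm of Fgfr4 rested on the probe set used, 1418596_PM_at, and none of the other 4 had one. With the mean over the 5 probe sets its amplitude was 0.08 (adjusted p = 0.165).

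**Figure D4:**
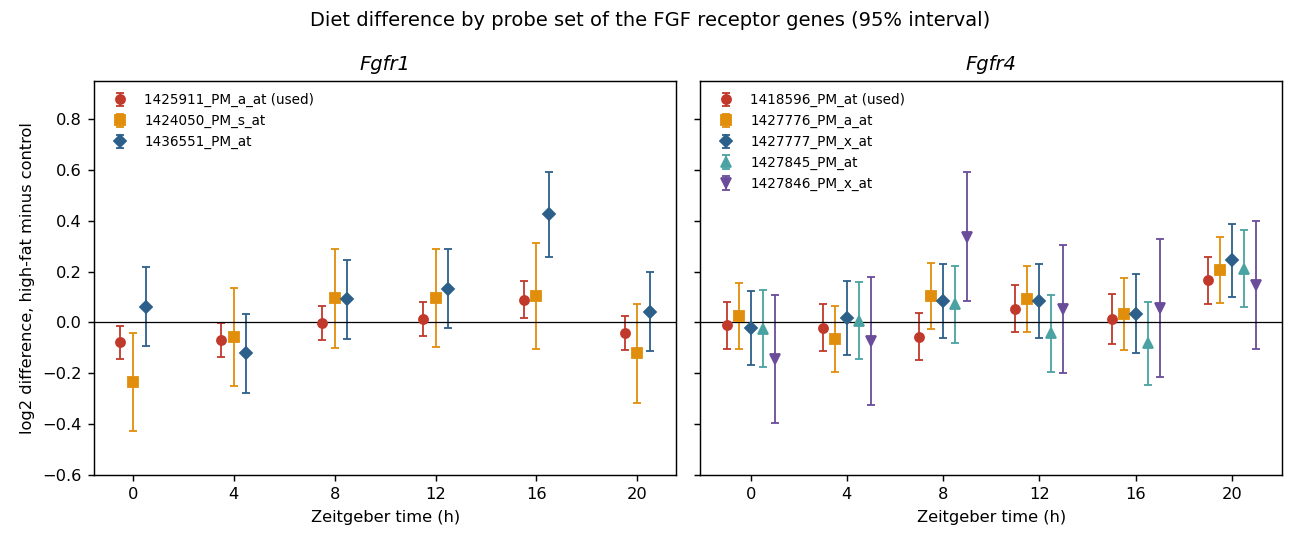
The log2 difference, high-fat minus control, is plotted by zeitgeber time (h) for each probe set of Fgfr1 (left) and Fgfr4 (right), with 95% intervals. At ZT16 the Fgfr1 probe set 1436551_PM_at lies at 0.43, above the other 2 (0.09 and 0.10).

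Among close relatives of the members, Spry2 passed. Spry2, another Sprouty, was lower on the high-fat diet by 0.19 ± 0.05 on average (adjusted p = 0.0113), the opposite direction to Spry1, and negative at all 6 times. Spry4 was at -0.09 ± 0.05 (adjusted p = 0.285). Spry3 (mean 4.10) and the chordin-like gene Chrdl1 (mean 5.64) were below the filter of 5.80 and were not tested. The receptor genes Fgfr2 (0.01 ± 0.05, adjusted p = 0.952), Fgfr3 (-0.13 ± 0.06, adjusted p = 0.183) and Fgfrl1, a receptor without a kinase domain (-0.08 ± 0.06, adjusted p = 0.462), did not pass on average or at any time.

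Some of the other genes of FGF signalling passed on average, where 11.5% of all tested genes did, and at ZT16, where 13.3% did. Of 6 FGF ligand genes 1 was lower, Fgf18 (-0.37 ± 0.08, adjusted p = 0.00169), with a list median of -0.04, against -0.01 over all tested genes. Fgf18 was lower by 1.14 ± 0.20 at ZT16, where the list median was -0.13 and that of all genes -0.02. Of 10 receptors and co-receptors 1 was higher, the syndecan gene Sdc3 (0.11 ± 0.03, adjusted p = 0.0249; list median 0.01). At ZT16 the heparan sulphate co-receptor gene Sdc4 was higher by 0.25 ± 0.05 (adjusted p = 0.00113). Of 11 feedback inhibitors 1 was higher, Spry1, and 2 were lower, Spry2 and the ERK phosphatase gene Dusp4 (-0.27 ± 0.08, adjusted p = 0.0251; list median -0.01). At ZT16 2 of these 11 were higher, Spry1 and the Spred family gene Spred2 (0.47 ± 0.10, adjusted p = 0.00171), and the list median was 0.14.

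Downstream, 2 of 12 genes of the Ras, Raf and ERK cascade were lower on average, the adaptor gene Grb2 (-0.26 ± 0.04, adjusted p = 9.21e-05) and the kinase gene Rps6ka3 (-0.19 ± 0.04, adjusted p = 0.00271), and both were lower at ZT16 too (-0.36 ± 0.11 and -0.65 ± 0.11). Of 10 ERK targets 3 were higher on average. They were Spsb1 (0.14 ± 0.04, adjusted p = 0.00945), Phlda1 (0.21 ± 0.06, adjusted p = 0.0139) and the immediate early gene Egr1 (0.05 ± 0.02, adjusted p = 0.0482). At ZT16 5 of the 10 were higher, such as Phlda1 (0.87 ± 0.15, adjusted p = 0.000168) and Egr1 (0.22 ± 0.04, adjusted p = 0.000858), and 1 was lower, the cyclin gene Ccnd1 (-0.78 ± 0.20, adjusted p = 0.00797). The median of the ERK targets at ZT16 was 0.13. Of all tested genes, 4.7% were higher and 6.8% lower on average, and 6.13% were higher and 7.13% lower at ZT16.

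Gas1 takes part in Hedgehog reception. The counts below stand beside 4.7% of all tested genes higher and 6.8% lower on average, and 6.13% and 7.13% at ZT16. Among 12 Hedgehog genes, 2 were higher on average, Gas1 and its fellow co-receptor gene Cdon (0.17 ± 0.04, adjusted p = 0.0103), with a list median of 0.10. At ZT16 the Hedgehog-binding gene Hhip was higher by 1.10 ± 0.20 (adjusted p = 0.000268), of the size of Gas1, and the Hedgehog target Gli1 was lower (-0.59 ± 0.20, adjusted p = 0.0474). The receptor genes Ptch1 (0.25 ± 0.20, adjusted p = 0.422) and Smo (0.14 ± 0.10, adjusted p = 0.343), named after their values were seen, did not pass there. Gas1 is structurally related to the GDNF receptors, and 1 of 7 GDNF pathway genes was higher on average, the tyrosine kinase gene Ret (0.40 ± 0.11, adjusted p = 0.0129).

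Chrdl2 stands with the BMP antagonists, of which 0 of 9 passed on average by limma, with a list median of 0.04. On average 4.7% of all tested genes were higher and 6.8% lower, and at ZT16 6.13% and 7.13%. Without adjustment 3 of the 9 had a p under 0.05 on average, where a p of 0.0412 ranked 2540 of the 10258 genes tested. At ZT16 3 of the 9 passed in both directions. Chrd, which encodes chordin, was higher (0.49 ± 0.09, adjusted p = 0.000149), while Fstl3 (-0.64 ± 0.12, adjusted p = 0.000467) and Chrdl2 were lower. Of 12 BMP ligands and receptors 1 was higher on average, the protease gene Bmp1 (0.31 ± 0.05, adjusted p = 0.000173), and 4 were higher at ZT16. Among these were the ligand genes Bmp4 (0.56 ± 0.12, adjusted p = 0.00175) and Bmp6 (0.36 ± 0.11, adjusted p = 0.0212), and the list median was 0.21. Of 13 transducers and targets, Smurf2 was lower on average (-0.13 ± 0.04, adjusted p = 0.0204) and the repressor gene Ski higher (0.07 ± 0.02, adjusted p = 0.0212). At ZT16 3 were lower, among them the ubiquitin ligase gene Smurf2 (-0.43 ± 0.10, adjusted p = 0.00286) and the signal transducer Smad5 (-0.39 ± 0.13, adjusted p = 0.0387).

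The members were set beside other genes of the stem cell state. Over all tested genes 4.7% were higher and 6.8% lower on average, and 6.13% and 7.13% at ZT16. Of 28 genes of satellite cell identity and quiescence 9 were higher on average and 0 lower, with a list median of 0.03. They included the transcription factor gene Foxo3 (0.15 ± 0.03, adjusted p = 0.000332), the Notch effector Heyl (0.18 ± 0.03, adjusted p = 0.000658), Notch3 (0.19 ± 0.05, adjusted p = 0.00696) and the calcitonin receptor gene Calcr (0.27 ± 0.07, adjusted p = 0.00868). At ZT16 3 of the 28 were higher, Foxo3 by 0.78 ± 0.07 (adjusted p = 8.44e-10), Sdc4 and Calcr. Of 14 cell cycle genes 1 was lower on average, Ccne1 (-0.17 ± 0.04, adjusted p = 0.00204). Of 8 commitment and differentiation genes 1 was lower, the myogenic factor gene Myod1 (-0.28 ± 0.04, adjusted p = 8.2e-06), and 1 higher, the intermediate filament gene Des (0.21 ± 0.04, adjusted p = 0.00204). At ZT16 Myod1 was lower by 0.70 ± 0.10 and Des higher by 0.85 ± 0.12. The lists were drawn up with results of these data known and say nothing of a direction on their own.

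**Figure D5:**
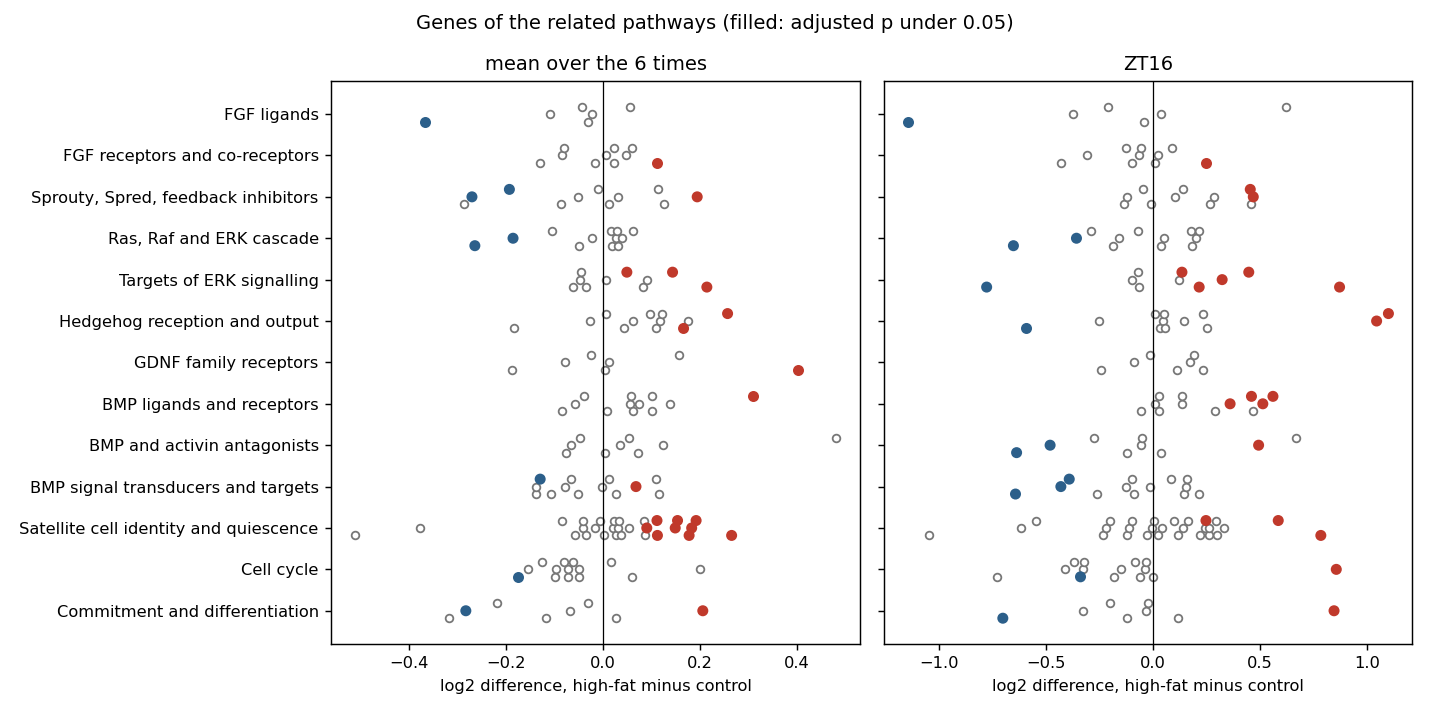
Each point is 1 gene of a pathway list, placed by its log2 difference, high-fat minus control, averaged over the 6 times (left) or at ZT16 (right). Filled points passed an adjusted p of 0.05, red for higher and blue for lower on the high-fat diet, and the rightmost filled points of the Hedgehog list at ZT16 are Hhip (1.10) and Gas1 (1.04).

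Over the 12 group means, Gas1 ran with Spry1 (Pearson r = 0.67) and with Fgfr1 (r = 0.65), and opposite to Chrdl2 (r = -0.70), while Chrdl2 ran with Fgfr4 (r = 0.62). These are descriptions over 12 points that share their collection days in pairs. Within groups, mouse by mouse, the members varied together only loosely. With group means removed, the largest correlations over the 47 mice were those of Gas1 with Spry1 (r = 0.40, Spearman rho = 0.37), of Spry1 with Fgfr4 (r = 0.40, rho = 0.35) and of Gas1 with Fgfr1 (r = 0.39, rho = 0.34). None of the 10 pairs passed (lowest adjusted permutation p = 0.081 for r and 0.146 for rho), nor did any without control ZT20 replicate 2 (lowest 0.0819 for r). Without the 2 mice farthest from the median of the first gene, these 3 correlations were 0.31, 0.35 and 0.37. Within single collection days the Gas1 and Spry1 correlation ran from -0.55 to 0.71, with 7 or 8 mice each, and was positive on 5 of 6 days.

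The genes most like each member were taken as those with the highest Pearson correlation with it over the 12 group means, among all tested genes. For Gas1 they were Cables1 (r = 0.956), Tnrc6b (0.953) and Rnf8 (0.949). For Spry1 they were Hoxaas2 (0.938), Mideas (0.896) and Fbxl18 (0.887). For Fgfr1 they were Sorbs3 (0.935), Dixdc1 (0.908) and Eppk1 (0.904), for Fgfr4 Hdac1 (0.882), Clptm1l (0.876) and Mettl22 (0.866), and for Chrdl2 Cd80 (0.915), Prelid3b (0.897) and Xrcc3 (0.896). No member was among the genes most like another.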

How the data were processed

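Muscle stem cell RNA was measured on Affymetrix arrays. Per the labels' protocols, 25 ng of total RNA per mouse went through 17 amplification cycles. The authors deposited log2 values, 1 for each probe set and array, from RMA, per the submitters' processing notes. RMA corrects background, quantile-normalizes and summarizes probes, and its version is not given in the sources used here. Differences between groups are thus relative to most genes on the array. Array medians lay between 5.86 and 5.94, values between 2.13 and 13.09, the correlation between arrays over the tested genes from 0.942 to 0.988, and no 2 arrays were identical. The number of arrays limits the precision.

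Of 45141 probe sets, 28898 carried 1 symbol, 551 several and 15692 none. Old symbols were replaced by way of the gene identifier, and probe sets with several or no symbols and the 104 control probe sets were not tested. The brightest probe set by mean stood for each of 17097 genes, and genes under the 40th percentile of the mean (5.80) were left out. Differences were tested with limma 3.58.1 in R 4.3.3 (eBayes, intensity trend), all 47 mice in 1 fit of 12 group means, two-sided, with Benjamini-Hochberg adjustment over 10258 genes and a threshold of 0.05. Rhythms were 24 h cosine and sine fits within each diet. The rhythm difference had time as a 6-level factor. Python 3.11.15 searched the promoters of RefSeq.

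On simulated data with 200 changed genes among 10258, average diet differences of 0.2 were recovered for 49.5% and of 0.4 for 92.5%. At ZT16 alone 0.2 was recovered for 0.5% and 0.4 for 26.5%. Rhythms on the high-fat diet were recovered for 55.0% at 0.2 and 93.5% at 0.4, and rhythm differences for 21.5% and 72.0%. The changed genes were drawn at random, and the median SD within groups was 0.19. For the members it ran from 0.045 (Fgfr1) to 0.195 (Gas1), and 13.3% of the real genes passed at ZT16. The shares therefore do not measure what could be detected for a given member.

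The members and lists were chosen with earlier results of these data known. The members, their probe sets and paralogs are named whatever their values. Each list gives up to 4 genes with the smallest p among those that passed on average and up to 2 in each other test, and the 3 genes most like each member are named. Counts of 5 or fewer are named in full in places, beyond that rule and after their values were seen. Alternatives were the gene filter, the probe set rule, 2 further normalizations, the variance trend, array weights, a replicate block, the day as a random block, each mouse left out and the ZT16 mice left out.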

Additional observations from a re-analysis of the deposited data

Results flagged for a closer look

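A mouse far from the other 3 of its group was found in 4 of the 55 groups of 4 mice examined, and chance gives about 1 in 20. For Gas1 these were high-fat ZT4 replicate 1, the highest at 10.24, and control ZT4 replicate 4, the highest at 10.17. For Chrdl2 they were high-fat ZT0 replicate 2, the lowest at 10.13, and high-fat ZT4 replicate 2, the lowest at 10.35. The high-fat ZT16 group, with 3 mice, was not examined.

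The diet difference changed with time for Gas1 (interaction adjusted p = 0.00331, limma) and for Chrdl2 (adjusted p = 0.00465, limma). For Chrdl2 every high-fat mouse lay above every control mouse at ZT20 (mean difference 0.26) and below at ZT16 (-0.48).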

How the results depend on the processing

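Without the ZT16 mice of both diets, 0 members passed on average (Gas1 0.10, Spry1 0.14), 0 for the interaction, 3 for the high-fat change over time and 1 pair for the difference between members. The pair differences then were -0.043 for Gas1 and Spry1, -0.0020 for Gas1 and Chrdl2 and -0.075 for Fgfr4 and Chrdl2, each reversed. At ZT16, Gas1 stayed between 1.04 and 1.07 and Chrdl2 between -0.52 and -0.46 under the settings that kept all mice, and both passed in each. Counts of members moved elsewhere. At ZT8 1 member passed (Spry1) with the 60th percentile filter, cyclic loess, a second quantile normalization, array weights or the replicate block. At ZT20 1 passed (Fgfr4) with cyclic loess or the second quantile normalization. Array weights gave 4 for the interaction and 2 for the rhythm difference, which was 1 with the 60th percentile filter, the mean over probe sets or the second quantile normalization. The control change over time was 2 without the intensity trend. The control rhythm of Spry1, which did not pass in the report, passed with the 60th percentile filter, cyclic loess, the second quantile normalization, array weights or without ZT16. The control rhythm count was 1 without the trend, with the mean over probe sets or with the day as a block. Cyclic loess gave 2 co-varying pairs. The cause of these changes was not tested.

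Small differences changed sign. With the mean over probe sets these were Fgfr1 on average (0.023) and at ZT8 (0.060), Fgfr4 at ZT8 (0.11), and Fgfr1 with Chrdl2 in the pair difference (0.018) and the correlation (-0.19). With cyclic loess they were Fgfr1 on average (0.0066) and at ZT8 (0.026), Fgfr4 at ZT0 (0.026) and the Fgfr1 and Fgfr4 correlation (-0.0015). With the second quantile normalization they were Fgfr4 at ZT0 (0.018) and Fgfr1 at ZT8 (0.0061), and with array weights Chrdl2 on average (-0.0056).

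Leaving out each mouse in turn gave 0 to 1 members at ZT8, 0 to 1 at ZT20, 2 to 4 for the interaction, 0 to 1 for the rhythm difference and 0 to 3 co-varying pairs, the 3 without control ZT4 replicate 4. Signs changed for Chrdl2 on average (-0.018 to 0.021) and at ZT12 (-0.17 to 0.0055), for Gas1 at ZT4 (-0.064 to 0.13), ZT12 (-0.057 to 0.18) and ZT20 (-0.012 to 0.21), for Spry1 at ZT20 (-0.12 to 0.086), for Fgfr1 at ZT8 (-0.040 to 0.015) and for Fgfr4 at ZT4 (-0.061 to 0.0095) and ZT16 (-0.023 to 0.046). They also changed for Fgfr1 and Chrdl2 in the pair difference (-0.037 to 0.0032) and correlation (-0.0047 to 0.20), and for the Gas1 and Chrdl2 correlation (-0.042 to 0.10).

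Replicate numbers did not pair the mice. Of 23 same-numbered pairs, 1 correlated over 0.1 (range -0.19 to 0.11). With the replicate block Spry1 passed at ZT8 (adjusted p = 0.0414), while Gas1 on the control diet (adjusted p = 0.0557) and Fgfr4 on the high-fat diet (adjusted p = 0.0513) no longer passed for a change over time. Those 2 changes were also lost without the filter, without the trend and without ZT16, and that of Fgfr4 with cyclic loess.

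Over all genes, the number that passed on average was 584 without ZT16, against 1180. It was 580 for the high-fat rhythm with the day as a block, against 1731, and 289 for the control rhythm, against 1081. At ZT16 array weights gave 2678, against 1360. Probe sets near background limit what could be measured of Spry3 and Chrdl1.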

Other observations

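Outside ZT16, genes around the members passed at single times. At ZT0 the BMP target genes Id3 (-0.29 ± 0.06, adjusted p = 0.00842) and Id1 (-0.54 ± 0.15, adjusted p = 0.0356) were lower on the high-fat diet. The replication clamp gene Pcna was lower there by 0.29 ± 0.06 (adjusted p = 0.00678), and Myod1 by 0.32 ± 0.09 (adjusted p = 0.0387). Ccnd1 was higher at ZT0 (0.78 ± 0.19, adjusted p = 0.0163), the opposite direction to ZT16. The glypican gene Gpc4 was higher at ZT0 (0.39 ± 0.09, adjusted p = 0.0168). At ZT8 the BMP receptor gene Acvr1 (0.49 ± 0.11, adjusted p = 0.0191) and Bmp1 (0.50 ± 0.13, adjusted p = 0.0344) were higher. At ZT20, with control ZT20 replicate 2 included, Dusp4 was lower by 0.92 ± 0.20 (adjusted p = 0.0107) and the cell cycle inhibitor gene Cdkn1c by 1.47 ± 0.35 (adjusted p = 0.0328).

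The 24 h rhythm differed between diets for some of these genes, although for 0 of the 5 members by limma. The ligand gene Bmp4 had an amplitude of 0.35 ± 0.06 in high-fat mice, peaking at 12.5 h, and of 0.17 ± 0.06 in control mice, peaking at 8.25 h (adjusted p of the difference = 0.0404). Ccnd1 had 0.67 ± 0.09 in high-fat mice (5.58 h) and 0.55 ± 0.09 in control mice (8.87 h) (0.0336). Cdkn1c peaked at 7.98 h in high-fat and at 17.6 h in control mice, with amplitudes of 0.51 ± 0.16 and 0.61 ± 0.15 (0.0198).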
